A study of Mus musculus with 23 samples.

Results

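The genes of glycolysis and of the response to low oxygen were followed through 6 culture conditions of mouse pancreatic ductal adenocarcinoma (PDAC) cells. The list holds 38 named genes, 23 of glycolysis and lactate handling and 15 of the hypoxia response, and they were found by their symbols in the deposited count table of 27207 genes. A row was present for 37 of them, and the glycolytic enzyme Aldoa was not analysed here. Of the 37, 35 (20 glycolysis and 15 hypoxia genes) passed the filter on low counts and were tested among 11144 genes. Neuronal enolase Eno2 (0 to 3 counts in a library) and the lactate dehydrogenase subunit Ldhb (0 to 10 counts) did not pass and are described by their counts only.

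The cells came from genetically engineered mice. KC cells carried Ptf1a Cre/+, so that Cre acts in cells with activity of Ptf1a, the gene of a pancreatic transcription factor. KPC cells carried Pdx1 Cre/+, so that the driver of Cre differed between the genotypes. Each genotype was represented by the cells of a single mouse. The groups were KC cells in 2D culture (2D, n = 6), KC organoids in Matrigel at day 13 (Matrigel D13, n = 3), KC organoids in floating collagen at day 7 (collagen D7, n = 3) and at day 13 (collagen D13, n = 5), a second batch of KC collagen organoids at day 13 (collagen D13 batch 2, n = 3) and KPC collagen organoids at day 13 of the same second batch (KPC, n = 3). Nothing in the labels ties a replicate to a separate animal, so p-values measure the spread between these cultures, and KPC and KC differ in mouse and genotype together, which cannot be told apart.

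In glycolysis, glucose enters through transporters such as GLUT1 (Slc2a1), is trapped by hexokinases and committed by phosphofructokinases, and is broken down to pyruvate, which lactate dehydrogenase turns into lactate for export by monocarboxylate transporters. In the hypoxia response, prolyl hydroxylases (Egln1, Egln3) mark the transcription factor subunit HIF-1α for degradation while oxygen is plentiful. When oxygen falls, HIF-1α persists, pairs with ARNT and binds hypoxia response elements with the core ACGTG or GCGTG near its targets, many of the glycolysis genes among them. HIF-1α is known to be set largely at the level of its protein, and PDAC is known for poor perfusion. Protein, oxygen and metabolites were not measured in the data used here.

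Total counts ran from 1221451 to 2471058 UMIs (unique molecular identifiers, each standing for a captured RNA molecule) per library, and levels are given as CPM, a count relative to the total of its library scaled by a TMM factor. Libraries cover the 3' ends of transcripts, so a level does not scale with transcript length. A total of 3 counts, the limit that a count of 0 allows, corresponds to 1.16 to 3.22 CPM, which covers counting error only. Markers of ductal epithelium summed to 7161 to 13992 CPM in all 23 libraries, although Epcam had 12 to 38 counts in 2D and collagen D7 libraries. Cldn4, also on the ductal list, was not among the tested genes. Markers of endothelium summed to at most 2.67 CPM, acinar markers to at most 20.4 CPM and endocrine markers to 0, while fibroblast markers summed to 25.9 to 130 CPM, mostly Col1a2 and Dcn. The leukocyte list held mostly Cd68, with 0 to 3 counts of its defining marker Ptprc. In bulk samples, fewer cells of a kind and less RNA per cell cannot be told apart.

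The 6 libraries of 2D cells stood in 2 sets under a single label. Replicates 1 to 3 had TMM factors of 0.738 to 0.772, 4.99 to 5.76% mitochondrial counts and 20.2 to 21.1% of counts in the 20 most abundant genes. Replicates 4 to 6 had factors of 1.04 to 1.06, 2.51 to 3.01% mitochondrial counts and 12.2 to 12.4% in the top 20 genes. Fibroblast markers summed to 95.1 to 130 CPM in the first set and 40.8 to 52.1 CPM in the second, and ductal markers to 7161 to 7340 and 9719 to 10310 CPM. The part of these differences in the results was not tested. Of the 20 tested glycolysis genes, 14 were lower in every library of the first set than in every library of the second, and none was higher, whereas 7 of the 15 hypoxia genes were higher in the first set (Vegfa, Car9, Bnip3, Bnip3l, Ndrg1, Ankrd37, Higd1a) and 1 (Hif1a) was lower. Over all tested genes 25% were lower and 22.5% higher in the first set without overlap. Counts of called members in 2D are therefore also given with each set alone, an alternative chosen after the values were seen, and so are single genes whose call or sign depended on the set.

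**Figure D1:**
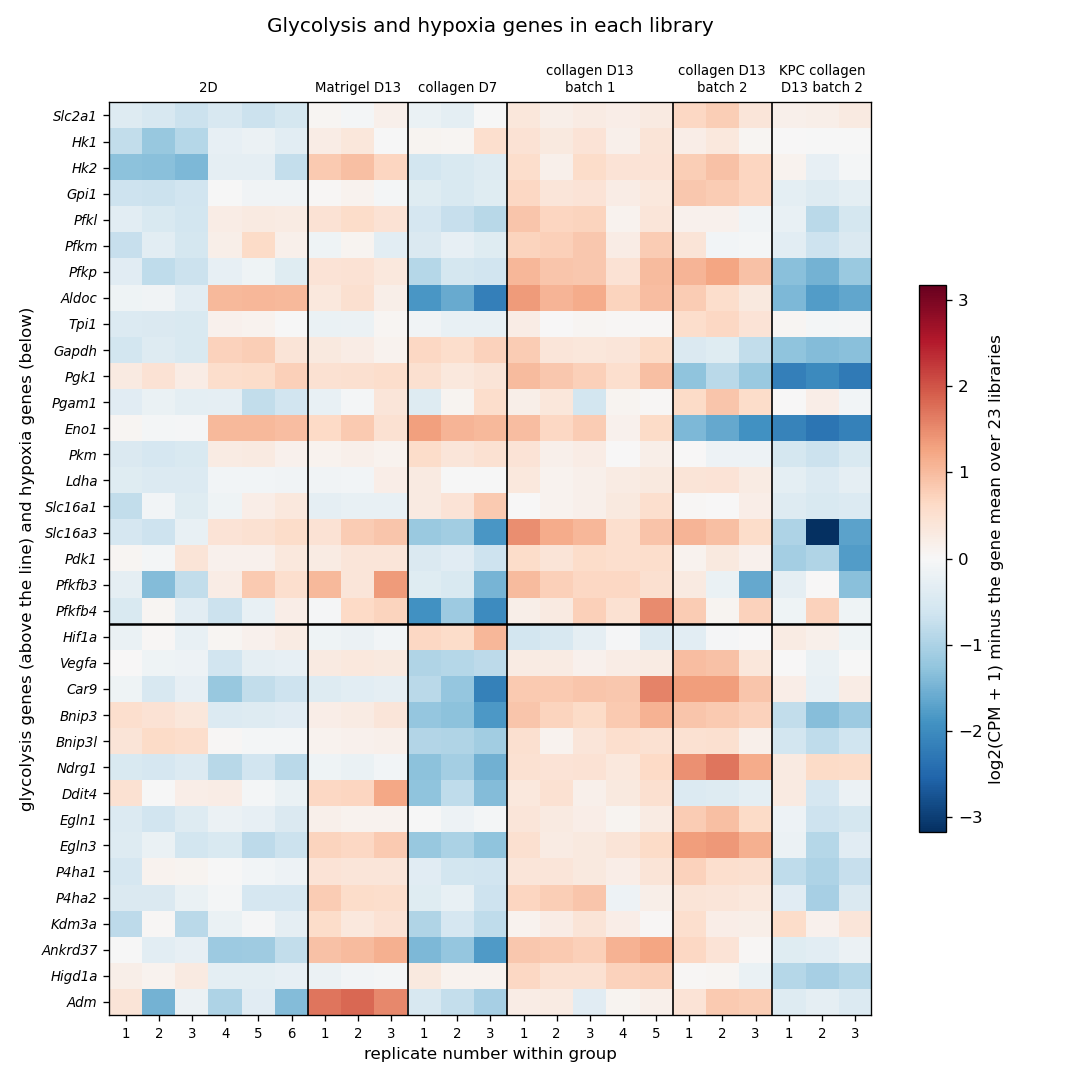
Each row is a tested gene (20 glycolysis genes above the line, 15 hypoxia genes below) and each column a library, numbered within its group. Color gives log2(CPM + 1) minus the gene's mean over the 23 libraries. The 3 collagen D7 libraries are low for most hypoxia genes and high for Hif1a, and Eno1, Pgk1 and Gapdh are low in both groups of the second batch.

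The organoids expressed a broad set of glycolytic genes at very different levels. In collagen D13, lactate dehydrogenase Ldha was at 3500 ± 229.96 CPM (mean ± SD, n = 5), pyruvate kinase Pkm at 1745 ± 181, triosephosphate isomerase Tpi1 at 789 ± 52.5 and Gapdh, the dehydrogenase of the middle of the pathway, at 676 ± 97.3. Lower on the same scale were the glucose phosphate isomerase Gpi1 at 534 ± 60.4, the liver-type phosphofructokinase Pfkl at 311 ± 63.1, Slc2a1 at 168 ± 8.03, hexokinase Hk2 at 163 ± 18.4 and its sister enzyme Hk1 at 116 ± 10.04 CPM. The phosphoglycerate mutase Pgam1 was at 11.7 ± 2.84 and the kinases Pfkfb3 and Pfkfb4, which make the activator of phosphofructokinase, were at 7.52 ± 1.10 and 11.3 ± 5.09 CPM. Gapdh shares much of its 3' sequence with other genes, as given below. Its level beside the other enzymes is therefore uncertain where the counting could split or drop such reads. Among the hypoxia genes the mitochondrial protein genes Bnip3 (359 ± 48.7 CPM) and Higd1a (239 ± 22.3 CPM) and the stress-response gene Ndrg1 (212 ± 16 CPM) were the most abundant, and the peptide hormone gene Adm was the lowest at 4.97 ± 0.959 CPM.

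Eno1 and Ldha were far above their listed partners. Eno2 had 3 counts or fewer in every library against 53.6 to 545 CPM of Eno1 as group means. Ldhb had 10 counts in KPC replicate 3 and at most 3 in every other library, against group means of 2330 to 3810 CPM for Ldha. A low count at this depth does not show that either gene was silent.

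Between 7 and 13 days in collagen, the listed HIF targets rose and the transcript of Hif1a itself fell. All 15 hypoxia genes passed the test, 14 lower at day 7 than at day 13 and 1, Hif1a, higher, and all 15 had groups that did not overlap. The median log2 fold change of the 15 (day 7 minus day 13) was -1.15 and that of all tested genes 0.01. Of the 20 glycolysis genes, 12 were lower at day 7 and 1 was higher, with a median of -0.64. Across all tested genes, 55.1% passed the test in this comparison, 28.1% higher and 27.1% lower, and 48.3% had no overlap. The share of members called lower was 74.3% (26 of 35). The 14 lower hypoxia genes were called in each of the 8 fits that left out 1 library.

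**Figure D2:**
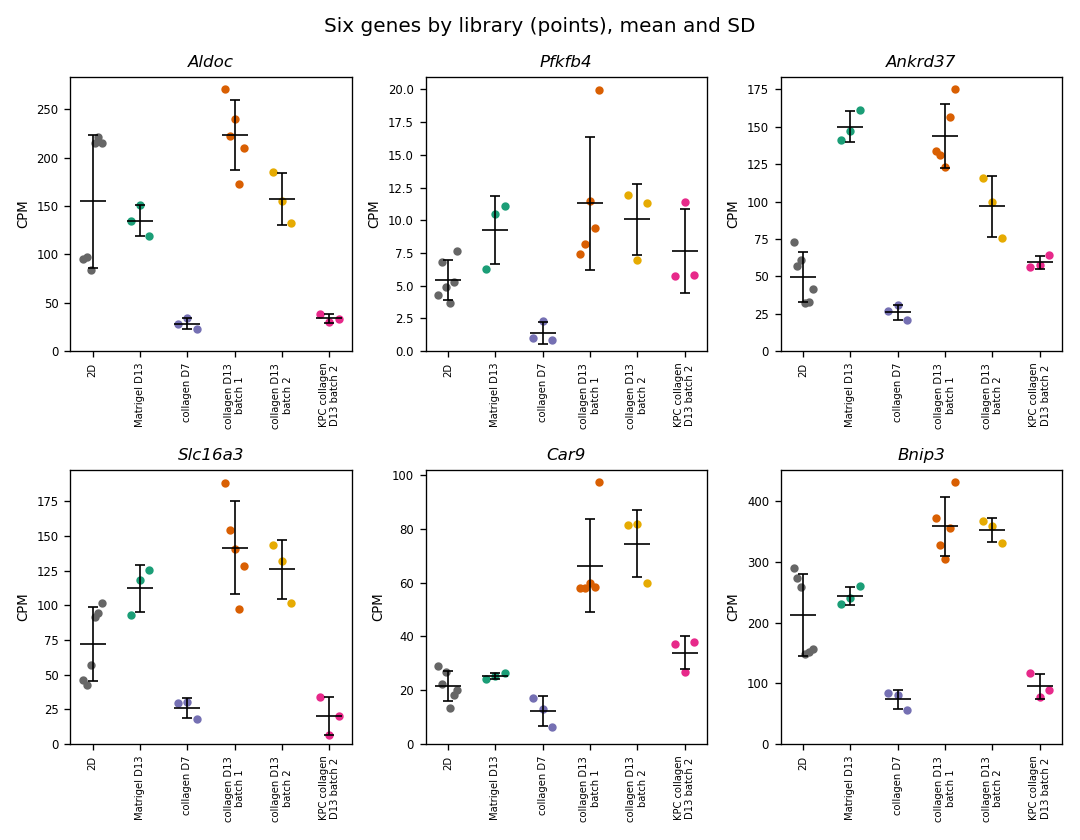
Points are libraries, with the group mean and SD in black, and the axis is CPM starting at 0. The 3 collagen D7 libraries lie below all collagen D13 libraries for each of the 6 genes with the largest difference between the days, and below most or all of the 2D libraries.

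The 6 members with the largest differences between the days were Aldoc, Pfkfb4, Ankrd37, Slc16a3, Car9 and Bnip3. Aldoc, an aldolase isozyme, was at 28.4, 34.1 and 22.6 CPM in the 3 collagen D7 libraries and at 271, 223, 240.2, 173 and 209.6 CPM in the 5 of D13. The groups did not overlap, with a log2 fold change of -2.97 ± 0.30 (SE, adjusted p = 9.00e-09). Slc16a3, the monocarboxylate transporter MCT4 that exports lactate, was at 29.4, 30.6 and 17.9 CPM at day 7 and at 188, 154, 140.2, 97.2 and 128 CPM at day 13, a log2 fold change of -2.44 ± 0.32 (SE, adjusted p = 6.09e-07). Pfkfb4 was at 0.981, 2.32 and 0.853 CPM at day 7, which stands for 2 to 6 counts, and at 7.42, 8.15, 11.5, 9.40 and 19.96 CPM at day 13. Its log2 fold change of -2.91 ± 0.44 (SE, adjusted p = 5.81e-06) rests on these few counts.

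Car9, the carbonic anhydrase at the cell surface that handles acid, was at 17.2, 13.2 and 6.39 CPM at day 7 and at 58, 58, 59.8, 58.2 and 97.2 CPM at day 13. All D13 libraries were above all D7 libraries, with replicate 5 of D13 apart from the other 4, and the log2 fold change was -2.44 ± 0.25 (SE, adjusted p = 1.46e-08). Bnip3, which acts in the removal of mitochondria, was at 84.8, 80.6 and 56.3 CPM at day 7 and at 372, 328, 304, 356 and 432 CPM at day 13, a log2 fold change of -2.28 ± 0.22 (SE, adjusted p = 5.44e-09). Ankrd37, an ankyrin repeat gene known as a HIF target, was at 26.5, 30.6 and 20.5 against 134, 131, 123, 157 and 175 CPM, with a log2 fold change of -2.47 ± 0.22 (SE, adjusted p = 1.35e-09). For each of these genes the lowest value at day 7 was in replicate 3.

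Hif1a ran the other way. It was at 81.4, 77.5 and 107 CPM at day 7 and at 33.8, 36, 41.6, 50.2 and 37.8 CPM at day 13, so that all D7 libraries were above all D13 libraries, with a log2 fold change of 1.15 ± 0.14 (SE, adjusted p = 2.35e-07). Vegfa, the angiogenic growth factor, was at 44.6, 46.9 and 48.6 CPM at day 7 and 106, 106, 97.6, 103 and 106 CPM at day 13, a log2 fold change of -1.15 ± 0.14 (SE, adjusted p = 1.41e-07). The hydroxylases that oppose HIF-1α were both lower at day 7, with log2 fold changes of -1.62 for Egln3 and -0.33 for Egln1 (adjusted p = 3.84e-09 and 0.0245). The remaining hypoxia genes lower at day 7 were Ndrg1 (-1.77), Ddit4 (-1.52), an inhibitor of mTOR signaling, Bnip3l (-1.42), Adm (-1.09), the histone demethylase Kdm3a (-0.996), the collagen prolyl hydroxylases P4ha2 (-0.95) and P4ha1 (-0.87) and Higd1a (-0.44), all values being log2 fold changes.

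Along the pathway, calls were made for genes of the entry and commitment steps, and most abundant enzymes after aldolase did not pass the test in the main fit. Slc2a1 was at 122, 112 and 139 CPM at day 7 and 179.9, 159, 167, 162 and 170.2 CPM at day 13, without overlap, and its log2 fold change was -0.43 ± 0.11 (SE, adjusted p = 0.00164). Hk2 (-0.93), Gpi1 (-0.84) and the phosphofructokinases Pfkl (-1.30), Pfkm (-1.08) and Pfkp (-1.56) were lower at day 7 on the log2 scale, as were Pdk1 (-1.04), the kinase that closes the entry of pyruvate into the mitochondrion, Pfkfb3 (-1.77) and phosphoglycerate kinase Pgk1 (-0.41). Ldha was at 3625, 2909 and 2940 CPM at day 7 and 3724, 3193, 3334, 3560 and 3690 CPM at day 13. The days overlapped, and its log2 fold change was -0.15 ± 0.13 (SE, adjusted p = 0.359). Hk1, Tpi1, Gapdh, Pgam1, Pkm and Slc16a1 did not pass the test either, with log2 fold changes from -0.27 to 0.30. Tpi1, whose groups did not overlap, was called lower at day 7 in 6 of 17 alternatives (adjusted p down to 0.0162). Pkm was called higher in 3 of 17 (down to 0.0467) and Slc16a1 in 5 of 17 (down to 0.00735). All 3 genes were called with the 2 groups fitted alone. Enolase Eno1 was called higher at day 7 (0.48 ± 0.22 SE, adjusted p = 0.0758), a call that was lost without collagen D7 replicate 1 or 2 or without collagen D13 replicate 2 or 4 (log2 fold change 0.37 to 0.51, adjusted p = 0.101 to 0.236). With the 8 KC collagen libraries of day 13 from both batches as controls, Pgk1 turned to 0.04 (adjusted p = 0.933) and Higd1a lost its call (log2 fold change -0.23).

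Immediate early and heat shock genes moved with the day. Their 12 genes summed to 1622 to 2382 CPM at day 7 and to 3026 to 3644 CPM at day 13, and the leukocyte list to 3.41 to 5.88 and 12.1 to 22.1 CPM. Organoids, unlike 2D cells, were digested with collagenase before lysis. The part of these genes in the result was not tested.

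RefSeq promoter windows on GRCm38.p6, from 250 bases before to 50 bases after a transcription start, were matched by symbol for 35 of the 37 members. Bnip3l and Ndrg1 had no entry. The core ACGTG, read on either strand (CACGT on the other), was present in a window of 11 of 13 hypoxia genes and 13 of 22 glycolysis genes, beside 30.2% of the 8632 tested genes with a window and 21.8% of all 27025 genes. With the core GCGTG counted as well, also on either strand, the motif was found in 32 of 35 members beside 69.3% of the tested genes. The members include well-known HIF targets, so that the share is a description of the list. The 60-base stretches below each lie before a RefSeq start and outside annotated exons. For Slc16a3, Ankrd37, Hif1a and Ldha the stretch lies inside the span of the GENCODE gene, downstream of its outermost start, and for Bnip3 outside that span. They are shown for members with the largest differences between the days (Slc16a3, Bnip3, Ankrd37) and for Hif1a and Ldha, which did not follow them, and capitals mark ACGTG or CACGT, which overlap in CACGTG.
Slc16a3: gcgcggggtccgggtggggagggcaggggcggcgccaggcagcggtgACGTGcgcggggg
Bnip3: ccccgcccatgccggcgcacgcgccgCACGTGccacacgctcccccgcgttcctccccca
Ankrd37: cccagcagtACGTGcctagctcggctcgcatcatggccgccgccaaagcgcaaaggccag
Hif1a: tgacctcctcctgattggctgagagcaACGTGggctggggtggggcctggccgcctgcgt
Ldha: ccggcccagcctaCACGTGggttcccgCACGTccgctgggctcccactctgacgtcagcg

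The stretch of Slc16a3 is at chr11:120948993-120949052 on the plus strand and that of Bnip3 at chr7:138909581-138909640 on the minus strand. That of Ankrd37 is at chr8:46000041-46000100 on the minus strand, that of Hif1a at chr12:73907770-73907829 on the plus strand and that of Ldha at chr7:46845743-46845802 on the plus strand. Among the other members with large differences, Aldoc lies at chr11:78322968-78327781 and Car9 at chr4:43506966-43513729, both on the plus strand. The Ldha stretch holds 3 matches, more than any of the other 4, although Ldha was not called between the days. Aldoc and Car9 hold the core ACGTG in their windows too, and Pfkfb4 holds the core GCGTG alone. A match is a description of letters and not of binding.

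**Figure D3:**
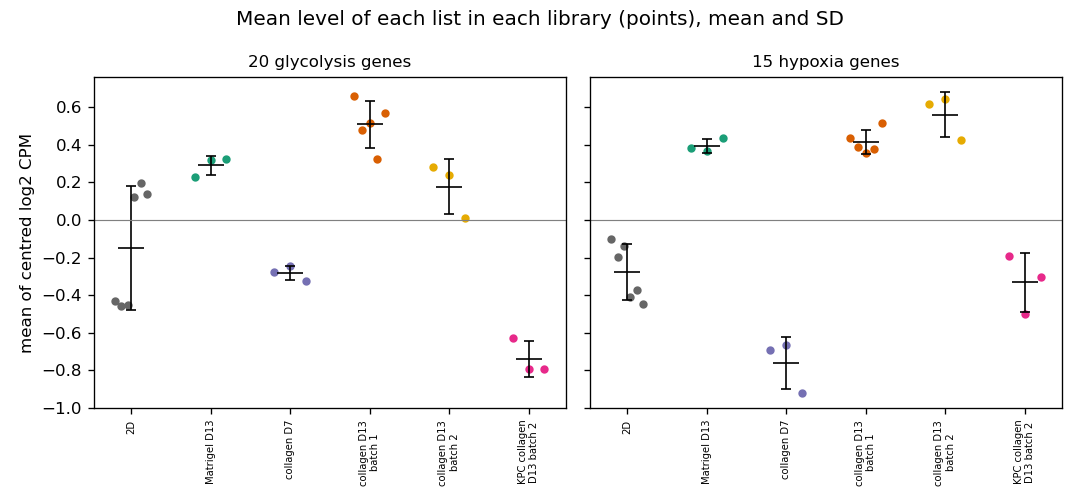
Points are libraries, and the value is the mean over a list of log2 CPM centred on each gene's mean over the 23 libraries, with the group mean and SD in black. For the 15 hypoxia genes the collagen D7 libraries are lowest (-0.92 to -0.67), 2D (-0.45 to -0.099) and KPC (-0.50 to -0.19) lie between, and Matrigel (0.37 to 0.43) and both collagen D13 groups (0.36 to 0.52 and 0.42 to 0.64) are highest.

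Cells in 2D culture lay between the organoids of day 7 and those of day 13 for many hypoxia genes. Against collagen D7, 10 of 15 hypoxia genes were higher in 2D and 2 were lower (Hif1a and Egln1), with a median log2 fold change of 0.64, beside 51.2% of all tested genes called, 26.4% higher and 24.8% lower. Against collagen D13, 12 were lower in 2D and 1, Hif1a, was higher, with a median of -0.67, beside 49.6% of all genes called, 26.3% higher and 23.3% lower. Groups did not overlap for 17 members against day 7 and 16 against day 13, beside 32.3% and 20.3% of all genes. Glycolysis genes were split against day 7, with 6 higher and 8 lower in 2D (median 0.05), and 17 of 20 were lower in 2D than at day 13 with none higher (median -0.58). The same 2D libraries enter both comparisons. Immediate early and heat shock genes summed to 886 to 1364 CPM in 2D, below both organoid groups, and their part was not tested. In all, 13 members were both higher in 2D than at day 7 and lower in 2D than at day 13, namely Pfkl, Aldoc, Slc16a3, Pdk1, Pfkfb4, Vegfa, Car9, Bnip3, Ndrg1, Egln3, P4ha1, Kdm3a and Ankrd37. The same calls were made for 5.22% of all tested genes. With 2D replicates 1 to 3 alone 11 members had these calls (without Pfkl and Kdm3a), and with replicates 4 to 6 alone 16 did (without Aldoc and Car9, and with Gpi1, Pfkm, Pfkp, Bnip3l and Ddit4).

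Aldoc showed both the distance from day 7 and the division within 2D. It ran from 83.8 to 222 with a median of 156 CPM over the 6 libraries of 2D, at 83.8 to 97.0 in replicates 1 to 3 and 216 to 222 in replicates 4 to 6, all above the 22.6 to 34.1 CPM of collagen D7. Against day 7 the log2 fold change was 2.47 ± 0.29 (SE, adjusted p = 2.93e-07), and against day 13 it was -0.49 ± 0.20 (SE, adjusted p = 0.0541), a call lost without any one of 2D replicates 1 to 3 or collagen D13 replicate 1 (adjusted p = 0.101 to 0.105). The value against day 13 was -1.26 with replicates 1 to 3 alone (adjusted p = 2.09e-09) and -0.07 with replicates 4 to 6 alone (adjusted p = 0.702). Slc16a3 ran from 42.7 to 102 with a median of 74.3 CPM in 2D, with a log2 fold change of 1.52 ± 0.31 (SE, adjusted p = 3.96e-04) against day 7 and -0.92 ± 0.23 (SE, adjusted p = 0.00252) against day 13. Pfkfb4 ran from 3.65 to 7.65 with a median of 5.11 CPM in 2D and was above every D7 library (1.87 ± 0.50 SE, adjusted p = 0.00396) and lower on average than D13 with overlap (-1.04 ± 0.30 SE, adjusted p = 0.00731).

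Mitochondrial and stress genes of the HIF response were also among the 6 largest differences of 2D from day 7. Bnip3 ran from 148 to 289.96 with a median of 207 CPM in 2D, with no library in the range of day 7, a log2 fold change of 1.51 ± 0.21 (SE, adjusted p = 3.96e-06). Against day 13 it was -0.77 ± 0.16 (SE, adjusted p = 5.67e-04), at -0.37 with 2D replicates 1 to 3 alone and -1.27 with replicates 4 to 6 alone, both called. Its relative Bnip3l ran from 109.9 to 176 with a median of 135 CPM in 2D against 60.3, 59.3 and 53.7 CPM at day 7 (1.25 ± 0.15 SE, adjusted p = 6.45e-07) and overlapped with day 13 (166, 125, 151, 168 and 161 CPM, -0.16 ± 0.12 SE, adjusted p = 0.302). Ddit4 ran from 44.2 to 72 with a median of 54.8 CPM in 2D against 20.6, 28.7 and 19.2 CPM at day 7 (1.26 ± 0.19 SE, adjusted p = 1.16e-05), and it too overlapped with the 64.4, 71.5, 56.9, 63.6 and 73 CPM of day 13 (-0.26 ± 0.15 SE, adjusted p = 0.168). Neither passed the test against day 13 with all 2D libraries, but with replicates 4 to 6 alone both were called lower, Bnip3l at -0.48 (adjusted p = 3.66e-04) and Ddit4 at -0.39 (adjusted p = 0.0501), and with replicates 1 to 3 alone neither was (0.13 and -0.11, adjusted p = 0.335 and 0.631). Both were also called lower with scaling by library size alone (-0.42 and -0.48), and Ddit4 without 2D replicate 1 (-0.33, adjusted p = 0.0782).

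The largest differences of 2D from day 13 were in Car9 and Ankrd37. Car9 ran from 13.2 to 29 with a median of 21.2 CPM in 2D, below every collagen D13 library, with a log2 fold change of -1.68 ± 0.20 (SE, adjusted p = 2.82e-07). Ankrd37 ran from 32.4 to 73 with a median of 49.5 CPM in 2D (-1.60 ± 0.17 SE, adjusted p = 5.97e-08) and did not overlap with day 13. Pfkp, the platelet-type phosphofructokinase, ran from 49.5 to 78.7 with a median of 66.8 CPM in 2D against 180.4, 160.2, 158, 119 and 175 CPM at day 13 (-1.27 ± 0.12 SE, adjusted p = 1.19e-08). Hk2, the inducible hexokinase, ran from 44.4 to 98.6 with a median of 59.8 CPM in 2D against 176, 133, 180.4, 162 and 164 CPM at day 13 (-1.21 ± 0.16 SE, adjusted p = 2.20e-06), and Ndrg1 ran from 83.1 to 112 with a median of 103 against 214, 205, 210.1, 194 and 237 CPM (-1.11 ± 0.11 SE, adjusted p = 2.65e-08). None of these 5 genes overlapped between the groups.

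Of the genes described in every condition, Slc2a1 was lowest in 2D, from 86.8 to 105 with a median of 96 CPM, with log2 fold changes of -0.39 ± 0.11 (SE, adjusted p = 0.00428) against day 7 and -0.82 ± 0.09 (SE, adjusted p = 1.27e-07) against day 13 and no overlap with either. Ldha ran from 2175 to 2797 with a median of 2485 CPM in 2D, lower than at day 7 (-0.34 ± 0.12 SE, adjusted p = 0.0264, lost without collagen D7 replicate 1 at adjusted p = 0.172) and at day 13 (-0.49 ± 0.11 SE, adjusted p = 6.30e-04). Vegfa ran from 57.1 to 88.1 with a median of 75.9 CPM in 2D, above day 7 (0.66 ± 0.13 SE, adjusted p = 3.50e-04) and below day 13 (-0.49 ± 0.11 SE, adjusted p = 9.31e-04). Hif1a ran from 43.4 to 61.2 with a median of 52.9 CPM, below day 7 (-0.75 ± 0.14 SE, adjusted p = 9.77e-05) and above day 13 with overlap (0.39 ± 0.13 SE, adjusted p = 0.0161), a call that was lost with scaling by library size alone (log2 fold change 0.19, adjusted p = 0.389).

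Several of the weaker calls rested on single libraries. Against day 7, Gapdh was lost without any one of 2D replicates 1 to 3 or of the D7 libraries (adjusted p = 0.107 to 0.185), Pfkfb3 without 2D replicate 5 or 6 or D7 replicate 3 (0.128 to 0.306), Kdm3a without D7 replicate 1 or 3 (0.134 to 0.141), Eno1 and Egln1 without D7 replicate 1 (0.136 and 0.104) and Car9 and Pgam1 without D7 replicate 3 (0.251 and 0.311). Without D7 replicate 1 the number of glycolysis genes lower in 2D fell from 8 to 5, and that of lower hypoxia genes from 2 to 1. Against day 13, Pkm and Tpi1 were lost without any one of 2D replicates 1 to 3 or D13 replicate 1 (0.141 to 0.155 and 0.145 to 0.169), Slc16a1 without 2D replicate 1, 3 or 4 or D13 replicate 4 or 5 (0.101 to 0.212) and Pgam1 without 2D replicate 5 or D13 replicate 2 (0.111 to 0.117).

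The calls for 2D cells depended on the set of libraries. With 2D replicates 4 to 6 alone, 10 glycolysis genes were higher and 5 lower than at day 7, and with replicates 1 to 3 alone 4 were higher and 10 lower, with 4 genes shared in each direction. For the hypoxia genes both sets gave 9 higher and 2 lower, of which 8 and 1 were the same genes. Car9 and Egln1 were called with replicates 1 to 3 alone and not with 4 to 6, and Kdm3a and Higd1a the reverse. Over all genes 23.9% were higher and 22.4% lower than at day 7 with replicates 4 to 6, and 28.3 and 29.1% with replicates 1 to 3. Against day 13, 13 and 19 glycolysis genes and 14 and 11 hypoxia genes were lower with replicates 4 to 6 and 1 to 3, beside 20.3 and 28.1% of all genes lower and 18.9 and 26.8% higher. The sets shared 12 lower glycolysis and 11 lower hypoxia genes. With replicates 4 to 6 Hif1a (0.47, adjusted p = 0.00803) and Eno1 (0.32, adjusted p = 0.0294) were called higher, whereas with replicates 1 to 3 Hif1a was not called (0.24, adjusted p = 0.24) and Eno1 was called lower (-0.65, adjusted p = 6.02e-05). The difference between the sets themselves was not tested. Scaling by library size alone moved the median log2 fold change of all genes to -0.14 against day 7 and -0.20 against day 13. The share of calls that were lower in 2D then went from 48.4 to 62.5% and from 46.9 to 68.1% over all genes, while 8 and 0 hypoxia genes were called higher and 3 and 14 lower.

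KPC organoids expressed less of most members than KC organoids of the same batch. Of the glycolysis genes 15 of 20 were lower in KPC and none was higher, with a median log2 fold change (KPC minus KC) of -0.65. Of the hypoxia genes 12 of 15 were lower and none was higher, with a median of -0.98. Across all tested genes the median was 0.01, and 19.9% passed the test, 9.58% higher and 10.4% lower in KPC. Groups did not overlap for 30 of 35 members, beside 37.3% of all genes.

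The largest differences were in the lactate transporter gene Slc16a3, the phosphofructokinase gene Pfkp and Aldoc. The other transporter gene Slc16a1 (-0.53) and the other phosphofructokinase genes Pfkl (-0.59) and Pfkm (-0.61, not called) differed less on the log2 scale. Slc16a3 was at 33.9, 6.58 and 20.1 CPM in KPC and 144, 132 and 102 CPM in KC, a log2 fold change of -2.65 ± 0.37 (SE, adjusted p = 1.22e-05). Pfkp was at 33.9, 29.9 and 37.5 CPM in KPC and 183, 209 and 166 CPM in KC (-2.46 ± 0.18 SE, adjusted p = 3.22e-10). Aldoc was at 38.3, 29.9 and 32.7 against 185, 155 and 132 CPM (-2.22 ± 0.32 SE, adjusted p = 1.80e-05). All KPC libraries were below all KC libraries for these 3 genes, and KPC replicate 2 was the lowest for each. Bnip3 was at 117, 77.8 and 89.7 CPM in KPC against 368, 359 and 331 CPM in KC (-1.90 ± 0.23 SE, adjusted p = 2.37e-06), Egln3 at 56.8, 34.1 and 50.1 against 164, 172 and 143 CPM (-1.76 ± 0.16 SE, adjusted p = 2.05e-08) and Pdk1 at 28.7, 31.1 and 17.4 against 66.2, 76 and 67.3 CPM (-1.45 ± 0.17 SE, adjusted p = 9.96e-07).

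Hif1a did not follow its targets here. It was at 62, 57.5 and 46.5 CPM in KPC and 40.4, 50.2 and 52 CPM in KC, overlapping, with a log2 fold change of 0.21 ± 0.17 (SE, adjusted p = 0.469). Vegfa was at 88.1, 75.4 and 86.6 against 173, 169 and 114 CPM (-0.87 ± 0.14 SE, adjusted p = 1.23e-04) and Ldha at 2384, 2181 and 2425 against 3894, 4001 and 3534 CPM (-0.71 ± 0.14 SE, adjusted p = 0.00105), both without overlap. Slc2a1 was at 156, 159 and 171 against 221, 243 and 182 CPM (-0.41 ± 0.12 SE, adjusted p = 0.0202), a call that did not hold in the fit lacking KC replicate 2 (-0.33, adjusted p = 0.11). P4ha1 (-1.43), Adm (-1.27), Egln1 (-1.25), Gpi1 (-1.13), Car9 (-1.12), Pgk1 (-1.10), Bnip3l (-1.07), P4ha2 (-0.98), Ndrg1 (-0.95), Higd1a (-0.92), Hk2 (-0.87), Ankrd37 (-0.71) and Tpi1 (-0.57) were also lower on the log2 scale. Ddit4, Kdm3a, Hk1, Pfkm, Pfkfb3, Pfkfb4 and Eno1 did not pass the test, with log2 fold changes from -0.61 to 0.27.

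The counts of lower hypoxia and glycolysis genes in KPC were followed with single libraries left out. Leaving out 1 library at a time left 11 or 12 lower hypoxia genes, with Ankrd37 lost without KC or KPC replicate 1 (adjusted p = 0.111 to 0.178), and 9 to 12 lower glycolysis genes, the lowest without KC replicate 2. Pgam1, Pkm and Slc16a1 were lost in each of these 6 fits (adjusted p = 0.102 to 0.236), Pfkl without KC replicate 1 or 2 or KPC replicate 2 or 3 (0.151 to 0.274) and Gapdh without KC replicate 2 or KPC replicate 2 or 3 (0.104 to 0.121). With scaling by library size alone, which moved the median of all genes to 0.13 and the lower share of all calls from 52.0 to 32.1%, 12 hypoxia genes and 8 glycolysis genes were lower. Immediate early and heat shock genes summed to 2639 to 2849 CPM in KPC and 4346 to 5003 CPM in KC, and the leukocyte list to 5.99 to 11.6 and 18.7 to 21.2 CPM. Ductal markers summed to 9830 to 11361 CPM in KPC and 12398 to 13992 CPM in KC, and the 20 most abundant genes held 15.2 to 15.4% and 17.6 to 18.5% of counts. Their part was not tested.

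**Figure D4:**
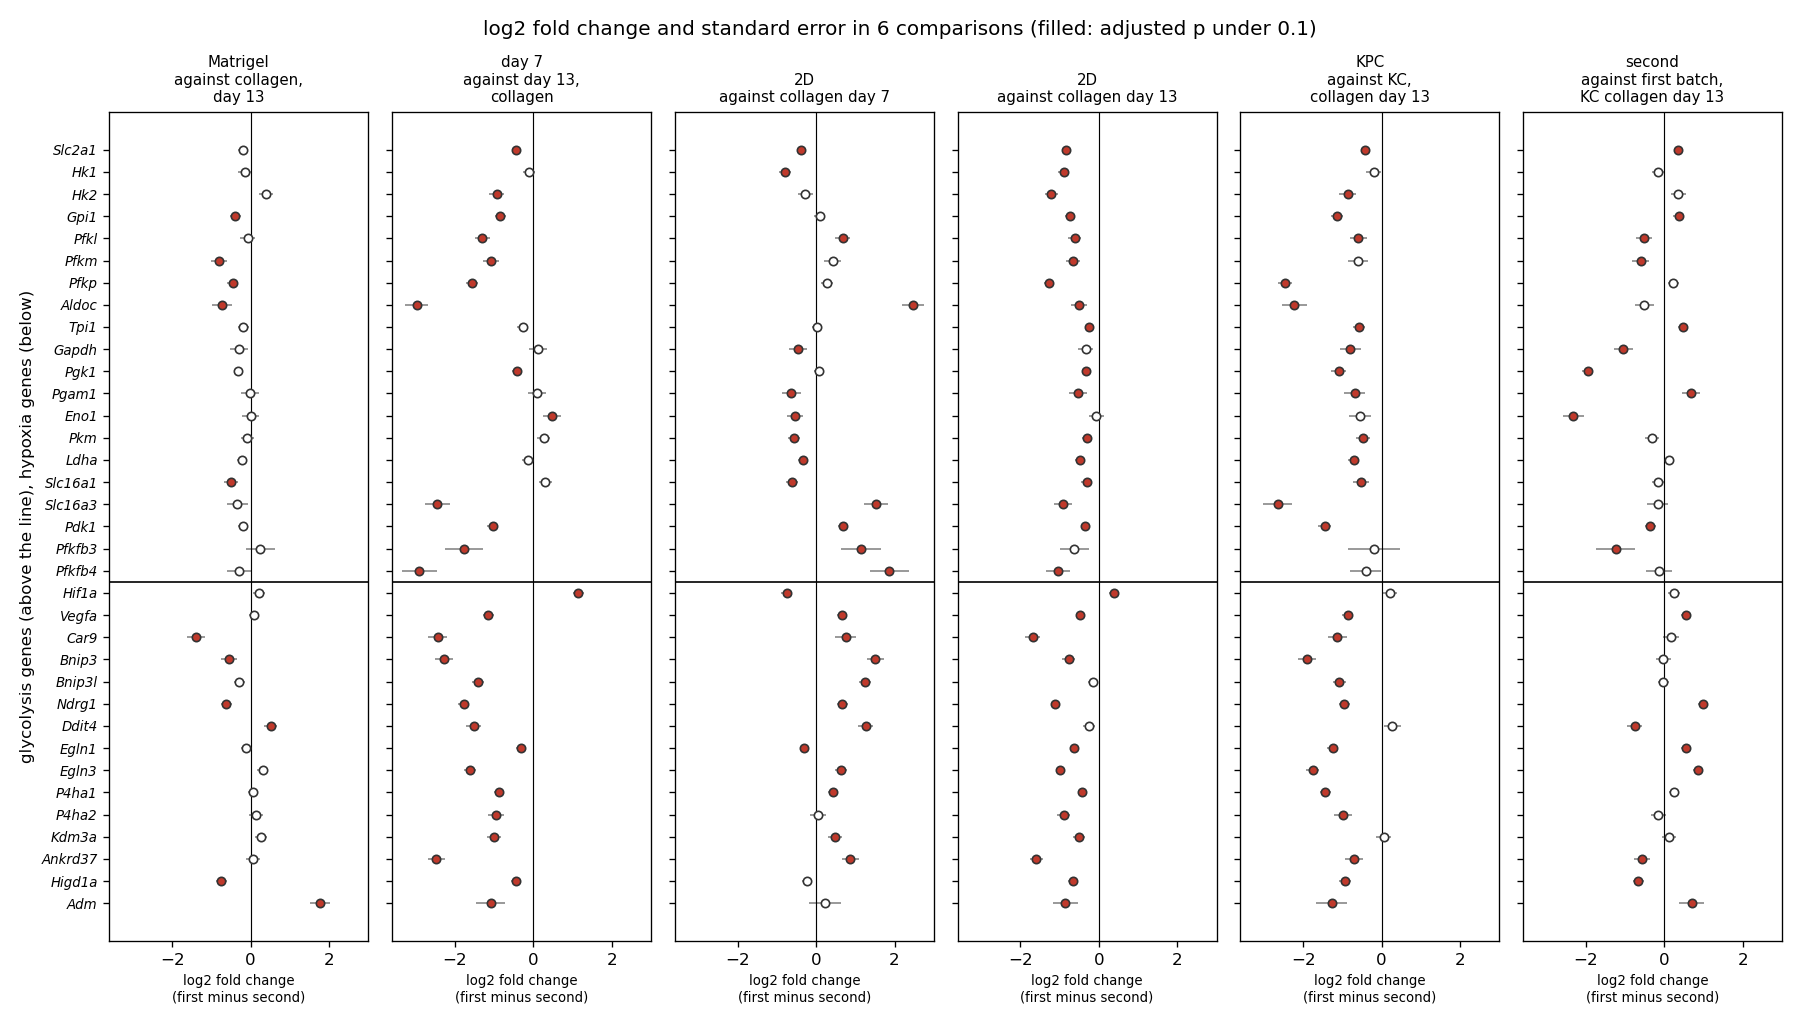
Each panel is a comparison, with the log2 fold change of each tested member (first minus second group) and its standard error, filled where the adjusted p was under 0.1. Points lie to the left of 0 for most members in the panels of day 7, of 2D against day 13 and of KPC, and on both sides in the panels of Matrigel and of the 2 batches.

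The comparisons of day 7, of 2D and of KPC against collagen D13 were set side by side for the members. In all, 20 members were lower at day 7 and in 2D than in collagen D13 of the first batch, and lower in KPC than in KC of the second batch: Slc2a1, Hk2, Gpi1, Pfkl, Pfkp, Aldoc, Pgk1, Slc16a3, Pdk1, Vegfa, Car9, Bnip3, Ndrg1, Egln1, Egln3, P4ha1, P4ha2, Ankrd37, Higd1a and Adm. These calls were made together for 4.85% of all tested genes, beside 57.1% of the tested members. The members were chosen with earlier results of these data known, so these shares are a description of the list. With 2D replicates 1 to 3 alone Adm left the 20, and with replicates 4 to 6 alone Aldoc left and Bnip3l joined. The comparisons of day 7 and of 2D share the 5 collagen D13 libraries, and the overlap was not tested.

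Matrigel and collagen organoids of day 13 differed in 11 of 35 members. Of the glycolysis genes 5 of 20 were lower in Matrigel (Gpi1, Pfkm, Pfkp, Aldoc, Slc16a1) and none was higher, with a median log2 fold change (Matrigel minus collagen) of -0.22. Of the hypoxia genes 2 were higher (Adm, Ddit4) and 4 lower (Car9, Bnip3, Ndrg1, Higd1a), with a median of 0.06. Together 31.4% of the members were called, beside 12.9% of all tested genes, 6.62% higher and 6.29% lower. Groups did not overlap for 16 members, beside 19.5% of all genes. Adm, which codes for the vasodilator adrenomedullin, was at 17.3, 18.7 and 15.2 CPM in Matrigel and 5.56, 5.75, 3.35, 4.93 and 5.25 CPM in collagen, and its log2 fold change was 1.77 ± 0.26 (SE, adjusted p = 3.50e-05). Car9 went the other way, at 24, 25.3 and 26.2 CPM in Matrigel and 58, 58, 59.8, 58.2 and 97.2 CPM in collagen (-1.39 ± 0.23 SE, adjusted p = 1.36e-04), as did Higd1a (-0.74 ± 0.13 SE, adjusted p = 4.17e-04) and Ndrg1 (-0.62 ± 0.13 SE, adjusted p = 0.00286). Hypoxia genes were thus called in both directions between the matrices.

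Slc2a1 (146, 133 and 158 CPM in Matrigel, -0.20 ± 0.11 SE, adjusted p = 0.276), Ldha (2728, 2798 and 3439 CPM, -0.23 ± 0.13 SE, adjusted p = 0.325), Hif1a (46.4, 44.9 and 48.4 CPM, 0.22 ± 0.15 SE, adjusted p = 0.44) and Vegfa (108, 112 and 109 CPM, 0.08 ± 0.13 SE, adjusted p = 0.803) did not pass the test between the matrices. Most of the weaker calls were lost when single libraries were left out. Bnip3 was lost in 7 of 8 such fits (all but that without collagen replicate 3, adjusted p = 0.11 to 0.266), Gpi1 in 6 (all 3 Matrigel and collagen 1, 3 and 5, 0.103 to 0.266), Aldoc in 5 (all 3 Matrigel and collagen 1 and 3, 0.112 to 0.234), Slc16a1 in 5 (all 3 Matrigel and collagen 4 and 5, 0.103 to 0.19), Pfkp without Matrigel replicate 1 or 3 (0.104 to 0.153) and Ddit4 without Matrigel replicate 3 or collagen replicate 3 (0.11 to 0.365). Adm, Car9, Ndrg1, Higd1a and Pfkm kept their calls in all 8. With scaling by library size alone no glycolysis gene was called lower, and the lower share of all calls went from 48.7 to 31.4%. Immediate early and heat shock genes summed to 1392 to 1455 CPM in Matrigel and 3026 to 3644 CPM in collagen, and the leukocyte list to 30.7 to 36.6 and 12.1 to 22.1 CPM, and their part was not tested.

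The 2 batches of KC collagen organoids of day 13 differed most, among the members, in Eno1, Pgk1, Pfkfb3 and Gapdh. Eno1 was at 91.4, 79.5 and 64.6 CPM in the second batch and 484, 388, 433, 273 and 378 CPM in the first, a log2 fold change (second minus first) of -2.32 ± 0.26 (SE, adjusted p = 2.95e-07). Pgk1 was at 27.8, 37.7 and 29.99 against 139.6, 126, 116, 100.3 and 135 CPM (-1.95 ± 0.15 SE, adjusted p = 5.47e-10) and Gapdh at 340.4, 363 and 275 against 828, 616, 606, 609.5 and 719 CPM (-1.05 ± 0.24 SE, adjusted p = 0.00163). The batches did not overlap for any of them. Of the other enzymes of the lower pathway, Tpi1 and Pgam1 were higher in the second batch and Ldha did not pass the test, Tpi1 differing by 0.47, Pgam1 by 0.68 and Ldha by 0.12 on the log2 scale (adjusted p = 0.0102, 0.0256 and 0.504). Pkm was lower in the second batch without overlap but did not pass the test (-0.31, adjusted p = 0.165). It was called lower with the 2 groups fitted alone. Pfkfb3 was at 5.30, 3.49 and 0.666 CPM in the second batch and 9.27, 7.67, 7.18, 7.17 and 6.30 CPM in the first (-1.24 ± 0.50 SE, adjusted p = 0.0615), a call lost without collagen D13 replicate 1 or batch 2 replicate 2 or 3 (adjusted p = 0.108 to 0.313).

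**Figure D5:**
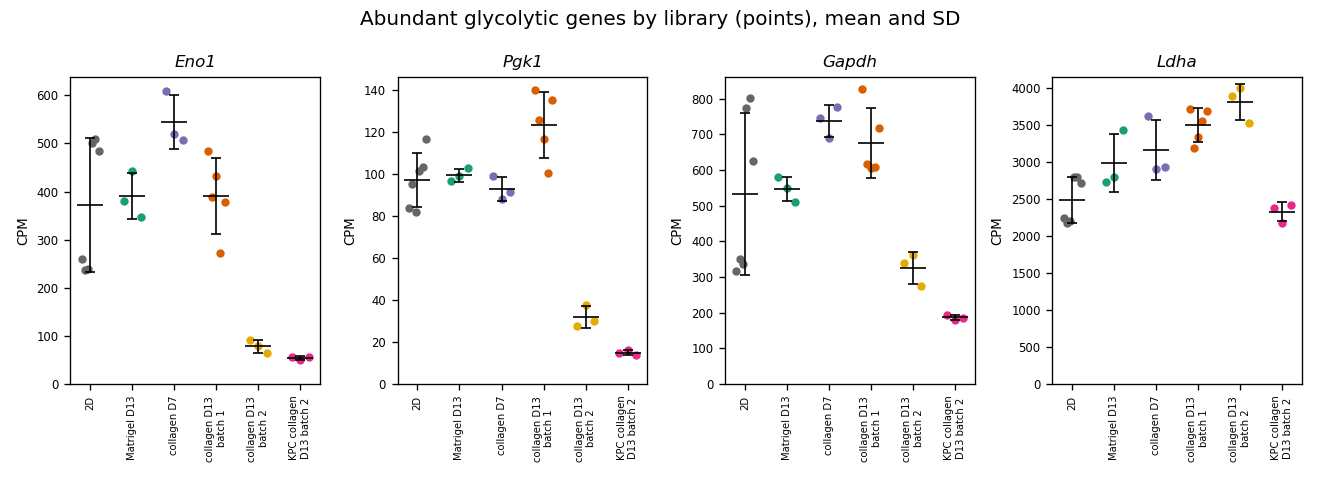
Points are libraries, with the group mean and SD in black, and the axis is CPM starting at 0. Eno1, Pgk1 and Gapdh are lower in both groups of the second batch than in any organoid group of the first, whereas Ldha of the second batch KC libraries lies with the first batch.

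Of the members, 19 of 35 were called between the batches, 9 higher and 10 lower in the second, beside 37.3% of all tested genes, 19.3% higher and 18.1% lower. Groups did not overlap for 20 members, beside 35.9% of all genes. The hypoxia genes Ndrg1 (0.98), Egln3 (0.86), Adm (0.70), Egln1 (0.55) and Vegfa (0.55) were higher in the second batch and Ddit4 (-0.76), Higd1a (-0.66) and Ankrd37 (-0.57) lower, on the log2 scale. Without batch 2 replicate 3, the lower glycolysis genes went from 7 to 3. Adm lost its call in 5 of 8 such fits (collagen D13 replicate 1, 3 or 4 or batch 2 replicate 2 or 3, adjusted p = 0.107 to 0.26), Pfkl without D13 replicate 1 or batch 2 replicate 1 or 3 (0.101 to 0.179), Pfkm without batch 2 replicate 2 or 3 (0.147 to 0.154), Pdk1 without batch 2 replicate 1 or 3 (0.144 to 0.196), Ankrd37 without D13 replicate 5 or batch 2 replicate 3 (0.101 to 0.202) and Pgam1 without batch 2 replicate 2 (0.124). Scaling by library size alone called 1 glycolysis gene higher, against 4 otherwise, moved the median of all genes from -0.05 to -0.18 and the lower share of all calls from 48.4 to 64.8%. Immediate early and heat shock genes summed to 4346 to 5003 CPM in the second batch, above the 3026 to 3644 CPM of the first, and ductal markers to 12398 to 13992 against 9649 to 11663 CPM. Mitochondrial counts made up 5.59 to 6.18% in the second batch and 3.01 to 4.83% in the first, and the 20 most abundant genes 17.6 to 18.5% and 12.2 to 14.1%. The part of these differences was not tested. Comparisons within a batch do not use these differences, and no comparison of KPC with the first batch was made as a main result.

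Eno1 and Gapdh share much of their 3' sequence with other genes. Of the 63-base words in the last 500 bases of annotated coding transcripts, 65.7% of those of Eno1 and 60.5% of those of Gapdh also occur in transcripts of other genes and 4.57% of those of Pgk1. The gene sharing most with Eno1 had at most 11 counts in a library and that sharing most with Gapdh at most 9. Words were also shared for Gpi1 (20.6%), Bnip3 (19.5%), Pkm (11%), Higd1a (10.3%), Ldha (7.59%) and Tpi1 (5.94%) among the tested members, and for none of the other 26. The values of Eno1 and Gapdh are therefore uncertain where the counting could split or drop such reads, and their part in the difference between the batches was not tested.

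Ratios between related members compare their counts within a library, with no test, and do not show which protein led. The log2 ratio of Hk2 to Hk1 ran from -0.55 to -0.14 at collagen D7, from 0.27 to 0.69 at collagen D13 and from 1.01 to 1.13 in Matrigel, without overlap between any of these. It ran from 0.98 to 1.03 in KC of the second batch, overlapping with Matrigel, and from 0.15 to 0.52 in KPC. The ratio of the lactate transporters Slc16a3 to Slc16a1 ran from -2.83 to -1.57 at day 7 and from 0.14 to 1.39 at day 13. Slc16a1, known as MCT1, thus had more counts at day 7 and Slc16a3 at day 13. In the second batch it ran from 0.31 to 0.97 in KC and from -2.95 to -0.66 in KPC. The ratio of Egln3 to Egln1 ran from -2.21 to -1.83 at day 7, from -0.97 to -0.61 at day 13 and from -0.41 to -0.23 in Matrigel. In KC of the second batch this ratio ran from -0.53 to -0.43, between first-batch collagen of day 13 and Matrigel. In KPC it ran from -1.22 to -0.79. The ratio of Pfkp to Pfkl separated KPC (-2.40 to -1.91) from KC of its batch (-0.33 to -0.13), and that of Bnip3 to Bnip3l separated day 7 (0.07 to 0.49) from day 13 (1.01 to 1.42) and KPC (0.25 to 0.61) from KC (1.12 to 1.36). The ratio of P4ha2 to P4ha1 overlapped between day 7 (-0.82 to -0.42) and day 13 (-1.16 to -0.21). That of Pfkfb4 to Pfkfb3 overlapped too, at -1.58 to 0 and -0.32 to 1.66.

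Other genes of glycolysis and of its side branches, of which 25 of 38 were tested, were called in both directions in each comparison. Between the days 10 were lower and 5 higher at day 7, led by the pyruvate dehydrogenase kinase Pdk2 (-2.48, adjusted p = 1.25e-10) and the D-lactate dehydrogenase Ldhd (-2.28, adjusted p = 6.96e-07) and, upward, by the muscle enolase Eno3 (0.88, adjusted p = 2.15e-04) and transketolase Tkt (0.56, adjusted p = 0.0126). In 2D, 9 were higher and 6 lower than at day 7, with Ldhd (1.45, adjusted p = 9.02e-04) and Pdk2 (1.19, adjusted p = 5.84e-05) up and the pentose phosphate enzyme Pgd (-0.80, adjusted p = 1.05e-04) and Tigar (-0.73, adjusted p = 0.0183) down, and 4 were higher and 12 lower than at day 13, with Eno3 (0.97, adjusted p = 2.71e-05) and the pyruvate carrier subunit Mpc2 (0.84, adjusted p = 0.00492) up and phosphoglucomutase Pgm2 (-1.38, adjusted p = 2.85e-08) and Pdk2 (-1.29, adjusted p = 1.36e-07) down. In KPC 2 were higher, Bpgm (0.98, adjusted p = 0.00118) and Tigar (0.77, adjusted p = 0.0465), and 6 lower, led by Pgm1 (-1.26, adjusted p = 1.38e-05) and the fructose bisphosphatase Fbp2 (-0.88, adjusted p = 4.37e-05). In Matrigel 1 was higher, Bsg (0.46, adjusted p = 0.0128), the partner protein of lactate transporters, and 5 lower, led by Fbp2 (-0.75, adjusted p = 1.17e-04) and Pgm2 (-0.73, adjusted p = 0.00421). Between the batches 2 were higher, Gpd2 (0.52, adjusted p = 0.0379) and Mpc1 (0.50, adjusted p = 0.0381), and 6 lower, led by Gpd1 (-0.96, adjusted p = 1.16e-04) and Pdk3 (-0.92, adjusted p = 0.0111). Values in parentheses are log2 fold changes. Between the days 60% of the 25 were called, beside 55.1% of all tested genes. For 2D the share was 60 and 64% against day 7 and day 13, beside 51.2 and 49.6%. For KPC, Matrigel and the batches it was 32, 24 and 32%, beside 19.9, 12.9 and 37.3%. The shares between the days and between the batches were thus close to those of all genes.

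Further genes of the hypoxia response, of which 38 of 44 were tested, were called in both directions between the days, 12 higher and 13 lower at day 7, with a median log2 fold change of -0.11. The lowest were Selenbp1 (-3.26, adjusted p = 4.95e-13) and the endothelin gene Edn1 (-2.60, adjusted p = 9.87e-06) and the highest Igfbp3 (1.49, adjusted p = 9.86e-07) and the caveolin gene Cav1 (1.29, adjusted p = 5.05e-08). In 2D 9 were higher and 8 lower than at day 7, with Stc2 (2.33, adjusted p = 1.11e-08) and Selenbp1 (1.64, adjusted p = 2.50e-07) up and Igfbp3 (-1.04, adjusted p = 1.38e-04) down, and 7 were higher and 9 lower than at day 13, with Cav1 (1.17, adjusted p = 1.01e-07) and Tpbg (1.01, adjusted p = 5.78e-06) up and Edn1 (-2.52, adjusted p = 5.57e-06) down. In KPC 2 were higher, the lipase inhibitor Angptl4 (0.76, adjusted p = 0.0041) and Cited2 (0.37, adjusted p = 0.064), and 10 lower, led by the oxidase of disulfide formation Ero1l (-2.28, adjusted p = 1.52e-08). In Matrigel 7 were higher, among them the lipid droplet gene Hilpda (0.97, adjusted p = 0.00999), and 2 lower, Selenbp1 (-0.42, adjusted p = 0.0701) and Insig2 (-0.39, adjusted p = 0.0386). Between the batches 8 were higher, led by Edn1 (1.20, adjusted p = 0.00139) and Ero1l (1.07, adjusted p = 2.47e-05), and 7 lower, led by Stc2 (-1.23, adjusted p = 3.45e-04) and the glycogen enzyme Gbe1 (-1.08, adjusted p = 0.00307). Between the days 65.8% of the 38 were called, beside 55.1% of all tested genes. For 2D the share was 44.7 and 42.1% against day 7 and day 13, below the 51.2 and 49.6% of all genes. For KPC, Matrigel and the batches it was 31.6, 23.7 and 39.5%, beside 19.9, 12.9 and 37.3%.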

How the data were processed

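The authors prepared 3' end libraries of polyadenylated RNA with unique molecular identifiers from 23 cultures, processed them with the Drop-seq pipeline (v1.0), aligned to GRCm38 with GENCODE M25 genes, and deposited raw UMI counts per gene. The deposited counts are whole numbers and not normalized. All 23 columns were used (0 left out), and groups and batches follow the labels.

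edgeR 4.0.16 (R 4.3.3) was used for quasi-likelihood tests in a single fit of the 6 groups, with TMM factors and filterByExpr, which kept 11144 of 27207 genes. Genes with a Benjamini-Hochberg adjusted p under 0.1 over all tested genes were called. Replicate counts differed beyond sampling noise in every pair (chi-square per degree of freedom 1.24 to 29.7). Pairs of 2D replicates 1 to 3 with 4 to 6 had 18.9 to 29.7, and all other pairs at most 6.18. The single fit shares its estimate of spread over the groups, so the 2D sets also enter the comparisons without 2D. The pipeline was tested on simulated counts. Alternatives were DESeq2 1.42.0, other scaling, filters, thresholds and groupings (2D replicates 1 to 3 and 4 to 6 alone were chosen after seeing the data), the replicate number as a block, and each library left out. Log2 ratios used CPM. Shared words, positions and exons came from GENCODE M21 and promoters from RefSeq, both GRCm38. Figures used matplotlib.

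The members and lists were chosen with earlier results of these data known. By rule, all members were named. Values per library were given for members with a call and an absolute log2 fold change of at least 1, at most the 6 largest of a comparison, and for Slc2a1, Hif1a, Vegfa and Ldha. From each further list the 2 highest and 2 lowest calls of a comparison were named, except that some items, including alleles of the mice, are not reported here. Ratios with Aldoa, Ldhb and Eno2 could not be formed.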

Additional observations from a re-analysis of the deposited data

Results flagged for a closer look

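Among the 35 tested members in the 2 groups of more than 3 libraries (70 pairs of gene and group), 3 values lay apart from the rest of their group by more than Dixon's 95% limit, which chance exceeds in about 1 in 20 groups. Car9 was at 97.2 CPM in collagen D13 replicate 5 and at 58.0 to 59.8 CPM in the other 4. Tpi1 was at 881 CPM in collagen D13 replicate 1 and at 751 to 779.6 CPM in the others. Pfkm was at 36.3 CPM in collagen D13 replicate 4 and at 51.5 to 56.9 CPM in the others. Without replicate 5 the log2 fold change of Car9 was -2.25 for day 7 against day 13 and -1.20 for Matrigel against collagen, against -2.44 and -1.39 with it.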

How the results depend on the processing

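The number of members called was within 1.5 times its value under every alternative in 5 of the 6 comparisons, and in the comparison of Matrigel with collagen it went from 11 to 6 with scaling by library size alone, to 7 at a threshold of 0.05 and to 7 with the replicate number as a block. With that block it was 30, 24, 30 and 26 for day 7 against day 13, 2D against day 7, 2D against day 13 and KPC against KC, beside 28, 26, 30 and 27 without. No paired analysis was possible for the batches because their replicate numbers mark different cultures in separate batches. Deviations of same-numbered libraries correlated at -0.12 to 0.19, and 2 of 17 correlated best with their own number. With so few libraries per group and the 2D sets apart, this cannot decide whether replicate numbers pair the cultures. Leaving out 1 library gave 5 to 10 calls for Matrigel, 27 to 29 for day 7, 21 to 28 and 26 to 31 for 2D against day 7 and day 13, 21 to 24 for KPC and 13 to 20 for the batches. Without Matrigel replicate 1, 2 or 3 the Matrigel count was 6, 7 and 5, and the cause was not tested. Among members called with the main setting or the alternative, signs turned for Pgk1 with the KC libraries of both batches (0.041 for day 7 and 0.11 for 2D against day 13), with 2D replicates 4 to 6 alone for Gapdh against day 7 (0.015) and Eno1 against day 13 (0.32), and with 2D replicates 1 to 3 alone against day 7 for Gpi1 (-0.22), Tpi1 (-0.27) and Pfkfb3 (-0.084), while other members called in neither also changed sign. With those pooled KC libraries as controls, calls were also lost for Pfkm, Aldoc and Slc16a1 (Matrigel), Aldoc, Pkm, Slc16a1 and Pdk1 (2D against day 13) and Slc2a1, Tpi1, Pgam1, Ndrg1 and Adm (KPC). The pooled KC libraries gained calls for Tpi1, Pkm and Slc16a1 (day 7 against day 13), Slc2a1 (Matrigel) and Hif1a, Eno1 and Pfkm (KPC). DESeq2 lost Bnip3 (Matrigel), Pgam1 (KPC) and Adm (batches). It gained Tpi1 (day 7 against day 13), Pfkp (2D against day 7) and P4ha1 (batches). With the 2 groups of a comparison fitted alone, calls were gained for Tpi1, Pkm and Slc16a1 (day 7 against day 13) and Hk2 and Egln3 (Matrigel). Eno1 and Pfkm (KPC) and Aldoc, Hk2, P4ha1 and Pkm (batches) were also gained. Lost were Eno1, Gapdh, Ldha, Kdm3a and Pfkfb3 (2D against day 7) and Aldoc, Pkm, Slc16a1 and Tpi1 (2D against day 13). The part of the 2D sets in these changes was not tested. Adm, Pfkfb3, Pfkfb4 and Pgam1, the tested members with the lowest levels in collagen D13, rest on few counts.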
